A study of Rattus norvegicus with 13 samples.

Results

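Collagens, laminins and integrins other than the main interstitial collagen chains were followed in the frontal cortex of rats 1 month after head trauma. The genes were chosen by name from the array: every gene called Col, a digit, a and a digit, or whose name starts with Lama, Lamb, Lamc, Itga or Itgb, leaving out Col1a1, Col1a2, Col3a1, Itgam and Itgax. The array held 67 such genes on 90 probes. Of these, 49 genes counted as measured, because all arrays of 1 group or more showed them well above background, among 17250 genes tested in all. The rule used no difference between groups. It also picked up 5 genes by their letters alone, 4 of them measured, which encode proteins of other families: Itgbl1, Itgb3bp, Itgb1bp1 and Col4a3bp (Itgb1bp2 was not above background). The collagen, laminin and integrin genes proper thus numbered 45.

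Collagen and laminin chains are the building material of the matrix outside cells. In the brain most of it lies in basement membranes, the thin sheets around blood vessels, under the pia and around the choroid plexus, where a laminin network and a collagen IV network are laid over each other. Fibril-forming collagens build the fibres of the meninges and of the outer vessel wall, and fibril-associated collagens sit on their surface. Integrins are the receptors that cells use to hold on to this matrix: each is a pair of an alpha and a beta subunit, and the pair decides which matrix protein is bound.

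The 13 samples came from male Sprague–Dawley rats, with 1 array of total RNA each. The labels give no age, hemisphere or distance from the impact. A sample is called a rat below, although the labels say only that the samples are separate. The 3 percussion trauma rats had lateral fluid percussion, in which a fluid pulse strikes the exposed dura. The 4 percussion sham rats had the anaesthesia and surgery of that model with no trauma. The 3 rotational trauma rats had a rotational acceleration of the head, and the 3 rotational sham rats the anaesthesia and surgery of that model with no trauma.

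Each trauma group was compared with the sham group of its own model. Each model had a slide of its own, and the models cannot be told apart from the slides. On each slide trauma and sham lay in different columns, with percussion trauma and rotational sham in column 1, and percussion sham and rotational trauma in column 2. Within a slide, trauma and column therefore cannot be told apart either. Between 67.0% and 74.1% of spots were well above background on an array, and 0 spots were saturated. In the percussion model this share was 72.7% to 73.8% in trauma, against 67.6% to 69.4% in sham. In the rotational model it went the other way, with 67.0% to 72.5% in trauma, against 73.1% to 74.1% in sham. The part of this share in the members' differences was not tested. Cell type markers of brain were read: all 6 neuronal, 5 astrocyte, 5 microglial and 4 oligodendrocyte markers were measured. These do not tell frontal cortex from other brain regions. Values are log2 signals relative to the upper quartile of the same array, so that 0 is the upper quartile and each step of 1 is a doubling. They can be compared between arrays for 1 probe, and not between probes. Since the tissue was taken whole, more cells of a type and more RNA per cell cannot be told apart.

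No member passed the threshold in any comparison. After percussion trauma limma called 0 of 49 members at an adjusted p under 0.05, where it called 0.0% of all genes, and the smallest adjusted p of a member was 0.226. After rotational trauma it called 0 of 49, where it called 0.0116% of all genes, with a smallest adjusted p of 0.428. For the mean of both trauma effects it called 0 of 49, with 0.0% of all genes and a smallest adjusted p of 0.186.

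Below that threshold the members lay mostly on the higher side. After percussion trauma 39 of 49 members were above their sham, where 52.7% of all genes were, and the members' median log2 difference was 0.21 against 0.01 over all genes. After rotational trauma 28 of 49 members were above their sham, where 39.8% of all genes were, with a median of 0.05 against -0.03. With normexp background correction this rotational median was -0.001, with 24 of 49 above 0, and without rotational trauma 2 it was 0.17, with 36 of 49. The percussion median was 0.14 to 0.29 with any 1 array left out.

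At an unadjusted p under 0.05, 10 members were higher and 0 lower after percussion trauma, where 7.52% of all genes were higher and 3.76% lower. The 10 became 19 without percussion trauma 3, 6 without percussion trauma 1 and 5 without percussion sham 4. After rotational trauma 9 were higher and 1 lower, where 2.85% of all genes were higher and 4.02% lower (6.86% together). The 9 became 5 without rotational sham 3, 3 without rotational sham 2 and 2 without rotational trauma 1. For the mean of both effects 15 were higher and 2 lower, where 5.1% and 3.83% of all genes were (8.92% together). The 15 became 9 without rotational trauma 1.

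**Figure D1:**
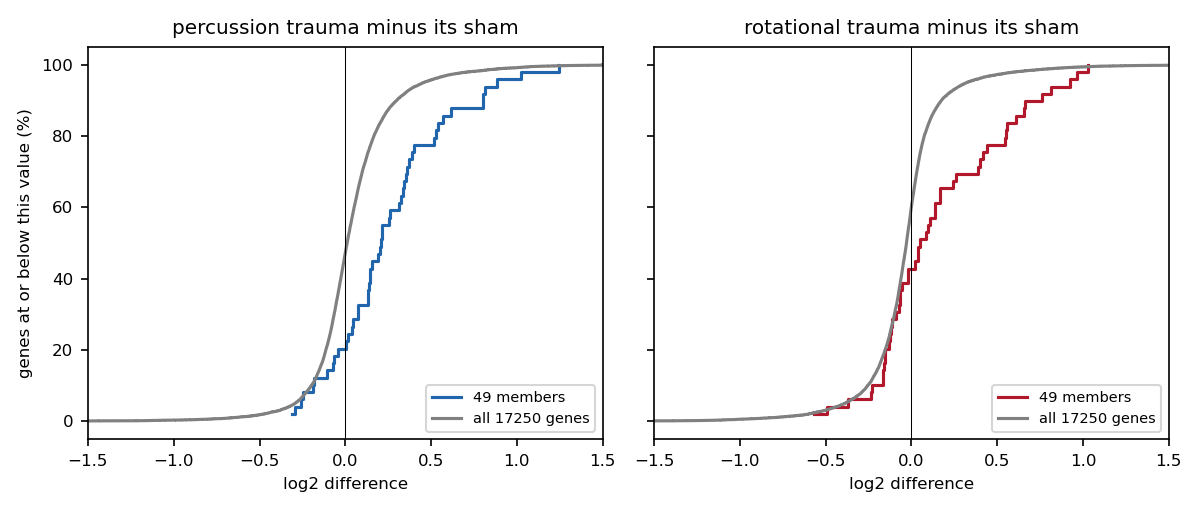
Cumulative share of genes (y axis, percent) against the log2 difference from sham (x axis, drawn from -1.5 to 1.5) for the 49 members and for all 17250 genes, percussion trauma on the left and rotational trauma on the right. The members' curve runs to the right of the curve of all genes over its upper part, with medians of 0.21 against 0.01 in the percussion panel and 0.05 against -0.03 in the rotational panel.

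Of the 49 members, 40 were well above background on all 13 arrays, and among these 33 were higher after percussion trauma and 25 after rotational trauma. The 9 others were Col11a1, Col23a1, Col24a1, Col2a1, Col4a4, Itga10, Itga11, Itga4 and Lama1. Col24a1 and Col4a4 were above background on 0 of 6 rotational arrays, so their rotational differences of -0.11 and -0.12 are differences between probes at background. The 18 genes left out were above background on at most 2 of 13 arrays, reached by Itgb6. They include Col4a3, Col6a3, Col8a2, Lamc3, Itga2, Itga5, Itgb3 and the leukocyte subunits Itgal, Itgad, Itgae and Itgb7, which have no measured level here.

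Of the basement membrane collagens 7 of 8 genes were measured. Their median difference was 0.20 after percussion trauma (6 of 7 above 0) and 0.09 after rotational trauma (4 of 7 above 0), where normexp background correction gave 0.02. Col4a5 and Col18a1 were higher than the other 5, which lay between -0.24 and 0.22 in both models.

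Col4a5 encodes a chain of the collagen IV networks found in kidney, lung and some brain basement membranes. Its signal was -2.48, -3.14 and -3.22 in percussion trauma, against -3.46, -3.69, -4.05 and -3.80 in percussion sham. It was -3.23, -3.40 and -3.72 in rotational trauma, against -3.95, -4.00 and -4.04 in rotational sham. In both models every trauma array lay above every sham array. The difference was 1.75-fold after percussion trauma (log2 0.80, SE 0.19, adjusted p = 0.226) and 1.46-fold after rotational trauma (log2 0.55, SE 0.20, adjusted p = 0.598), where normexp gave a log2 difference of 0.30. The probe lies on chromosome X from 36919794 to 36919853 (rn4).

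Col18a1 encodes the heparan sulfate bearing collagen XVIII of vascular basement membranes, whose end piece is released as endostatin. Its signal was -0.93, -1.58 and -1.56 in percussion trauma, against -1.86, -2.40, -2.16 and -2.56 in percussion sham. The rotational trauma arrays gave -1.41, -2.01 and -1.62, against -1.78, -2.71 and -2.22 in rotational sham. The percussion groups did not overlap and the rotational groups did. The log2 difference was 0.88 after percussion trauma (SE 0.25, adjusted p = 0.264) and 0.55 after rotational trauma (SE 0.27, adjusted p = 0.745).

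The main collagen IV pair of vessel walls, Col4a1 and Col4a2, had smaller differences. Col4a1 averaged -0.43 ± 0.15 (SD, n = 3) in percussion trauma and -0.56 ± 0.16 (SD, n = 4) in percussion sham, a difference of 0.13 with an SE of 0.15. In rotational trauma it averaged -0.63 ± 0.34 and in rotational sham -0.77 ± 0.12 (SD, n = 3 each), a difference of 0.14. A second Col4a1 probe, dimmer than the one used, gave 0.30 and -0.50 in the same order, so the sign of the rotational value depends on the probe. Col4a2 differed by 0.20 after percussion trauma and by -0.24 after rotational trauma, where 1 trauma array stood at -4.55 and the 2 others at -3.17 and -3.26. Col15a1, a relative of Col18a1, differed by 0.22 and 0.09, and Col7a1, the anchoring fibril collagen of skin, by 0.00 and -0.02.

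Promoter windows are shown for the members with the smallest p in the mean of both effects, for which the reference table holds one, and for the stretch between Col4a2 and Col4a1, which start head to head and are transcribed away from each other. Each is the 250 bases before the annotated start, on the strand of the gene, from RefSeq on GRCr8. They lie at chrX:109907109-109907358 for Col4a5, chr1:19491896-19492145 for Lama2, chr13:107362303-107362552 for Lamb3, chr20:11473395-11473644 for Col18a1 and chr17:80410634-80410883 (minus strand) for Itga8. The Col4a2 and Col4a1 starts are 76 bases apart, at chr16:84885521-84885596, plus strand shown. For Itga8 no match was found. Capitals mark the GC box (GGGCGG, the usual binding site of Sp1) and the CCAAT box on either strand, and no marked matches overlapped in these windows.
Col4a5: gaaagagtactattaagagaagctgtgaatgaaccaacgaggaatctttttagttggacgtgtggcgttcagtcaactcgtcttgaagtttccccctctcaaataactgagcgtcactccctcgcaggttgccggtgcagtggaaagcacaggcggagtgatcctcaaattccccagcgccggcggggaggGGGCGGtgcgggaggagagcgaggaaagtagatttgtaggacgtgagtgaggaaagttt
Lama2: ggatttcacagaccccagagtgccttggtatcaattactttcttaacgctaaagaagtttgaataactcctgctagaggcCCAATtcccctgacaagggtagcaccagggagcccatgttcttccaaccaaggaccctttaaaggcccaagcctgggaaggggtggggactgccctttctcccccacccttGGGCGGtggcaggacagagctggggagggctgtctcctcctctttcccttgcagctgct
Lamb3: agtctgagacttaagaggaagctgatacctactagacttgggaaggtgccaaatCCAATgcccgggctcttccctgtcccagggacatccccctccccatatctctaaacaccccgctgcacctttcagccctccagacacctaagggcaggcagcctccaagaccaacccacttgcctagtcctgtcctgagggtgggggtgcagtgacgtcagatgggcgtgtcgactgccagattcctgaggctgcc
Col18a1: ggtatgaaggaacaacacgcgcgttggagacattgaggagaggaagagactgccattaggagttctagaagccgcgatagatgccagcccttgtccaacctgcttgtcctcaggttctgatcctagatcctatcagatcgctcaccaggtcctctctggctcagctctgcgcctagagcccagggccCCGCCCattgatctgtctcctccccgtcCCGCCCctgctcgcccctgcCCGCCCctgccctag
Itga8: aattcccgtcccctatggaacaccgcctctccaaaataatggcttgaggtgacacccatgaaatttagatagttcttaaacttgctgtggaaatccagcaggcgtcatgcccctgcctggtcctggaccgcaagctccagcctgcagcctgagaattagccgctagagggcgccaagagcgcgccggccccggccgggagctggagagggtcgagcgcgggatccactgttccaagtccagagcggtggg
Col4a2 to Col4a1: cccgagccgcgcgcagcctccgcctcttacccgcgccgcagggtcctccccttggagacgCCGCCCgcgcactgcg

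Of the 49 members 39 had a window, 41 windows in all, and they were compared with all 33469 windows of the table. The GC box was present in 58.5% of the members' windows and in 30.5% of all. The members' windows were also richer in G and C, with a median of 60% against 51.2%. CCAAT was present in 22.0% against 34.0%, GGAATG (the TEAD motif) in 19.5% against 12.1%, and TGANTCA (the AP-1 motif) in 2.44% against 6.34%. TATAAA was found in 0 of 41 windows and in 12.9% of all. These are matches of letters on either strand, described with no test.

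Laminins are trimers of an alpha, a beta and a gamma chain, and 7 of 8 chain genes were measured. Their median difference was 0.33 after percussion trauma (6 of 7 above 0) and 0.11 after rotational trauma (5 of 7 above 0), where normexp gave 0.07 (4 of 7 above 0). The family was not uniform, since Lama2 was among the highest members and Lamb3 was the lowest after rotational trauma.

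Lama2 encodes the alpha chain of the laminin that astrocyte endfeet and pericytes lay around vessels, which is lost in a congenital muscular dystrophy. Its signal was -3.36, -3.69 and -4.34 in percussion trauma, against -4.40, -4.66, -4.53 and -4.81 in percussion sham. The rotational trauma arrays gave -3.53, -4.16 and -3.99, against -4.43, -4.44 and -4.48 in rotational sham. No trauma array overlapped a sham array in either model, although percussion trauma 3 lay just above the highest sham. The log2 difference was 0.80 after percussion trauma (SE 0.21, adjusted p = 0.233) and 0.56 after rotational trauma (SE 0.22, adjusted p = 0.651). With normexp the Lama2 differences were 0.46 and 0.34.

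Lamb3 encodes a beta chain of the laminin that anchors epithelia. Its signal was -4.50, -4.38 and -4.57 in percussion trauma, against -3.97, -4.21, -4.21 and -4.38 in percussion sham. Rotational trauma gave -4.02, -4.16 and -4.29, against -3.92, -3.42 and -3.43 in rotational sham. Every trauma array was lower than every sham array in both models, though in the percussion model the closest pair were equal to the second decimal. The log2 difference was -0.29 after percussion trauma (SE 0.13, adjusted p = 0.444) and -0.57 after rotational trauma (SE 0.14, adjusted p = 0.428).

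The other laminin chains of vascular basement membranes were slightly higher. Lamb2, a beta chain, was -0.26, -0.73 and -1.44 in percussion trauma, against -1.28, -1.43, -1.21 and -1.45 in percussion sham. Percussion trauma 1 and 2 thus lay above all sham arrays and percussion trauma 3 among them (log2 difference 0.53, SE 0.23, adjusted p = 0.419), while after rotational trauma the difference was 0.24. Lama5, the alpha chain laid down by endothelium, differed by 0.33 after percussion trauma and by 0.04 after rotational trauma. Lamc1, the gamma chain shared by most laminins, differed by 0.14 and 0.11 and Lama1, an alpha chain of the pial surface, by 0.52 and 0.39.

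Across both models, then, every trauma array lay above every sham array of its model for 2 members, Col4a5 and Lama2, and below for 1, Lamb3, where 0.557% and 0.272% of all genes did so. Within the percussion model alone this held for 6 members above and 1 below (5.9% and 3.82% of all genes). Within the rotational model it held for 9 above and 3 below (4.86% and 10.6% of all genes). These 3 members also had the smallest p in the mean of both effects, with log2 differences of 0.68 (SE 0.14) for Col4a5, 0.68 (SE 0.15) for Lama2 and -0.43 (SE 0.10) for Lamb3, each with adjusted p = 0.186.

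**Figure D2:**
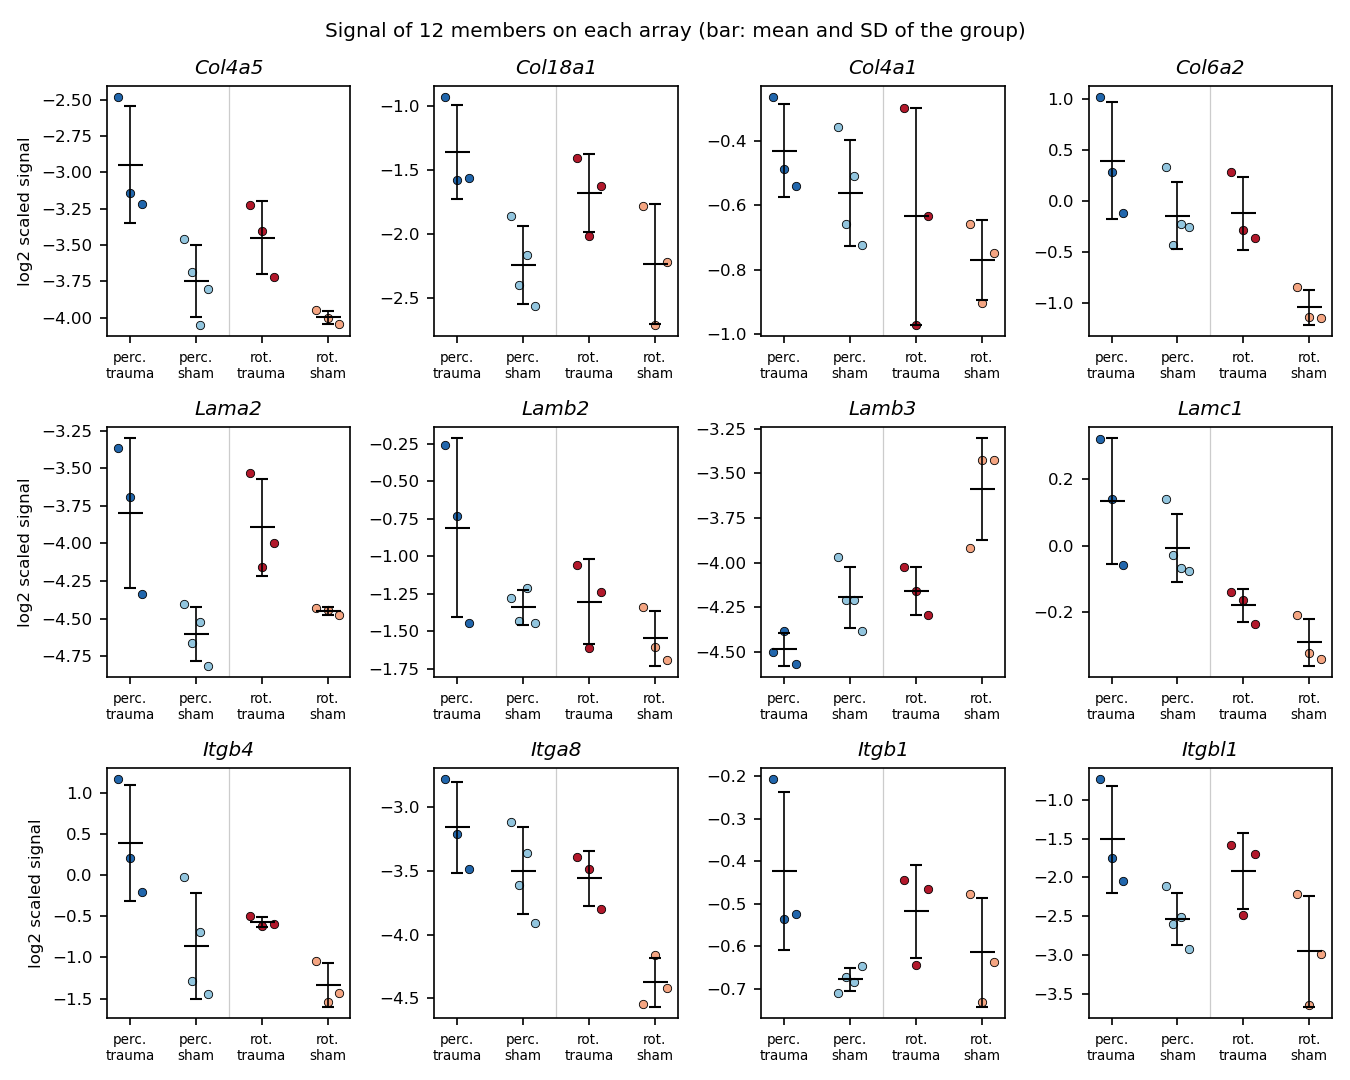
Log2 signal relative to the array's upper quartile (y axis, a separate scale in each panel) of 12 members on each array, with percussion trauma, percussion sham, rotational trauma and rotational sham from left to right, a point per array and the mean and SD of each group as bars. Col4a5 and Lama2 have all trauma points above all sham points of the same model and Lamb3 has them below, while the Col4a1 and Lamc1 groups overlap in the percussion model.

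The fibril-forming collagens among the members lay around their sham level. All 8 genes were measured, with a median difference of -0.03 after percussion trauma (4 of 8 above 0) and -0.09 after rotational trauma (3 of 8 above 0). Their relatives Col1a1, Col1a2 and Col3a1, left out here, are among the meningeal markers below, which were all above 0 in both models. Col5a1 and Col5a2, which set the diameter of collagen I fibrils, differed by 0.35 and 0.07 after percussion trauma and by 0.40 and 0.17 after rotational trauma. Col5a3 differed by -0.18 and 0.02 in the same order. The cartilage collagen genes differed by -0.31 and -0.49 (Col11a1), -0.25 and -0.13 (Col11a2) and -0.11 and -0.37 (Col2a1). For Col11a1 another probe gave -0.05 after percussion trauma and -0.39 after rotational trauma. A second Col11a2 probe gave 0.08 after percussion trauma and -0.32 after rotational trauma, so the sign of the percussion value depends on the probe. Col2a1 was above background on 3 of 3 percussion trauma arrays and 2 of 4 percussion sham arrays, and on 1 of 3 rotational trauma arrays and 2 of 3 rotational sham arrays. Col27a1 differed by 0.19 and -0.07 and Col24a1 by 0.04 and -0.11, and no gene of the group passed (smallest adjusted p 0.694 after percussion trauma and 0.88 after rotational trauma).

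Fibril-associated collagens, which bind to the surface of fibrils, had 7 of 8 genes measured and a median of 0.21 after percussion trauma (4 of 7 above 0) and 0.44 after rotational trauma (5 of 7 above 0), where normexp gave 0.26. Col12a1, which coats collagen I fibrils under tension, was -1.82, -2.18 and -2.50 in percussion trauma, against -2.16, -2.57, -2.48 and -2.70 in percussion sham. Rotational trauma gave -2.25, -2.92 and -2.59, against -2.91, -3.48 and -3.34 in rotational sham. The groups overlapped in both models (log2 differences 0.32 and 0.66, adjusted p = 0.589 and 0.587).

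Col9a2, a chain of collagen IX, differed by 0.57 (SE 0.26) after percussion trauma and by 0.66 (SE 0.27) after rotational trauma. Col9a1, a partner chain of the same trimer, differed by -0.04 and -0.16, and its 2 dimmer probes gave -0.17 and -0.24 after percussion trauma and 0.18 and -0.56 after rotational trauma. Col14a1 and Col16a1 differed by 0.37 and 0.21 after percussion trauma and by 0.44 and 0.26 after rotational trauma, and Col19a1 by -0.07 and -0.16. Col20a1 varied widely among the rotational trauma arrays: it was -2.89, -3.82 and -5.20 in rotational trauma, against -4.97, -5.06 and -4.77 in rotational sham. Rotational trauma 1 and 2 were above the sham arrays and rotational trauma 3 below them (log2 difference 0.96, SE 0.44). The difference was 0.42 without rotational trauma 1, 1.58 without rotational trauma 3, 0.55 with normexp and 0.63 with array weights, and the percussion difference was -0.07.

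Of the beaded-filament and network collagens 3 of 7 genes were measured. Col6a2, a chain of collagen VI, was 1.02, 0.28 and -0.12 in percussion trauma, against 0.33, -0.43, -0.23 and -0.26 in percussion sham. Rotational trauma gave 0.29, -0.29 and -0.36, against -0.84, -1.14 and -1.15 in rotational sham. The rotational groups were separate, at 1.90-fold (log2 0.92, SE 0.28, adjusted p = 0.539), and the percussion groups overlapped (log2 0.54, SE 0.26, adjusted p = 0.467).

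Col6a1, which assembles with Col6a2, showed the other order. It was -0.84, -0.58 and -1.07 in percussion trauma, against -0.72, -1.94, -1.78 and -2.14 in percussion sham, where 1 sham array was as high as the trauma arrays (log2 difference 0.81, SE 0.29, adjusted p = 0.357). After rotational trauma it differed by 0.17 (SE 0.31). Col8a1, a network collagen of vessel walls, differed by 0.40 after percussion trauma (0.23 with normexp and 0.61 with array weights) and by -0.23 after rotational trauma. The single transmembrane collagen measured, Col23a1, differed by 0.61 (SE 0.22, adjusted p = 0.357) and -0.02.

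Among the receptors, Itgb4 had the highest difference after percussion trauma of all 49 members. It encodes the beta subunit that pairs with alpha 6 to bind laminin, in hemidesmosomes of epithelia and in some vessels and nerve sheaths. Its signal was 1.16, 0.21 and -0.21 in percussion trauma, against -0.02, -1.28, -0.69 and -1.44 in percussion sham. Values of -0.50, -0.62 and -0.60 were found in rotational trauma, against -1.04, -1.54 and -1.43 in rotational sham. Percussion sham 1 lay between percussion trauma 2 and 3, and the rotational groups did not overlap. The difference was 2.37-fold after percussion trauma (log2 1.25, SE 0.35, adjusted p = 0.264) and 1.70-fold after rotational trauma (log2 0.76, SE 0.38, adjusted p = 0.761). Its partner Itga6 differed by 0.07 and -0.12 (SE 0.23 and 0.24), and the genes of the pair were not tested against each other.

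The other beta subunits differed less. Itgb1, the partner of most collagen and laminin receptors, was -0.21, -0.54 and -0.52 in percussion trauma, against -0.71, -0.67, -0.68 and -0.65 in percussion sham. All trauma arrays were above all sham arrays, by a small amount (log2 difference 0.26, SE 0.09, adjusted p = 0.357). After rotational trauma the difference was 0.10, and a second probe gave 0.16 and -0.13. Itgb5 and Itgb8, partners of the alpha V subunit, differed by 0.22 and 0.13 after percussion trauma and by -0.06 and 0.14 after rotational trauma. A second Itgb5 probe gave 0.12 after rotational trauma, so the sign there depends on the probe.

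Alpha subunits of collagen and laminin receptors had 5 of 6 genes measured, all 5 above 0 after percussion trauma and 3 after rotational trauma (medians 0.26 and 0.05, with the rotational median at -0.12 under normexp background correction). Itga1, a collagen receptor subunit of smooth muscle and endothelium, was 0.38, 0.02 and -0.14 in rotational trauma, against -0.21, -0.54 and -0.25 in rotational sham. These groups did not overlap (log2 difference 0.42, SE 0.16, adjusted p = 0.6), and the percussion difference was 0.14. Itga7, a laminin receptor subunit of muscle, differed by 0.34 after percussion trauma and by -0.15 after rotational trauma. The collagen receptor subunits Itga10 and Itga11 differed by 0.39 and 0.26 after percussion trauma and by 0.61 and 0.05 after rotational trauma. For Itga10 the SE was 0.64 and 0.69. It was above background on 1 of 3 rotational trauma arrays and 2 of 3 rotational sham arrays, so its rotational difference is largely one near background.

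Itga8, whose product pairs with the beta 1 subunit and binds nephronectin, was -2.78, -3.21 and -3.48 in percussion trauma, against -3.11, -3.61, -3.36 and -3.91 in percussion sham. In rotational trauma it was -3.39, -3.48 and -3.80, against -4.54, -4.16 and -4.42 in rotational sham. The percussion groups overlapped (log2 difference 0.34, SE 0.21, adjusted p = 0.555). The rotational groups did not overlap, at 1.76-fold (log2 0.82, SE 0.22, adjusted p = 0.463), and the log2 difference was 0.45 with normexp background correction. Itga4, which binds fibronectin and the vascular adhesion molecule VCAM, differed by 0.36 and -0.16, and was above background on 1 of 3 rotational trauma arrays.

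Of the 5 members grouped as leukocyte integrin subunits, which leave Itga4 with the fibronectin receptors, Itgb2 alone was measured. Itgb2, the common beta subunit of leukocytes and microglia, differed by 0.15 after percussion trauma and by -0.09 after rotational trauma. Of the genes that share only letters with the families, Itgbl1 encodes a secreted protein with integrin-like repeats. It was -0.74, -1.75 and -2.04 in percussion trauma, against -2.12, -2.60, -2.51 and -2.92 in percussion sham, with no overlap. The rotational trauma arrays gave -1.58, -2.48 and -1.70, against -2.21, -3.64 and -2.99 in rotational sham, with overlap. Both log2 differences were 1.03 (adjusted p = 0.365 and 0.64). The centromere protein gene Itgb3bp differed by -0.26 and -0.16, the integrin-tail binding protein gene Itgb1bp1 by 0.01 and -0.06, and the ceramide transfer protein gene Col4a3bp by 0.04 in both. Without these 4 genes 36 of 45 were above 0 after percussion trauma and 26 of 45 after rotational trauma.

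**Figure D3:**
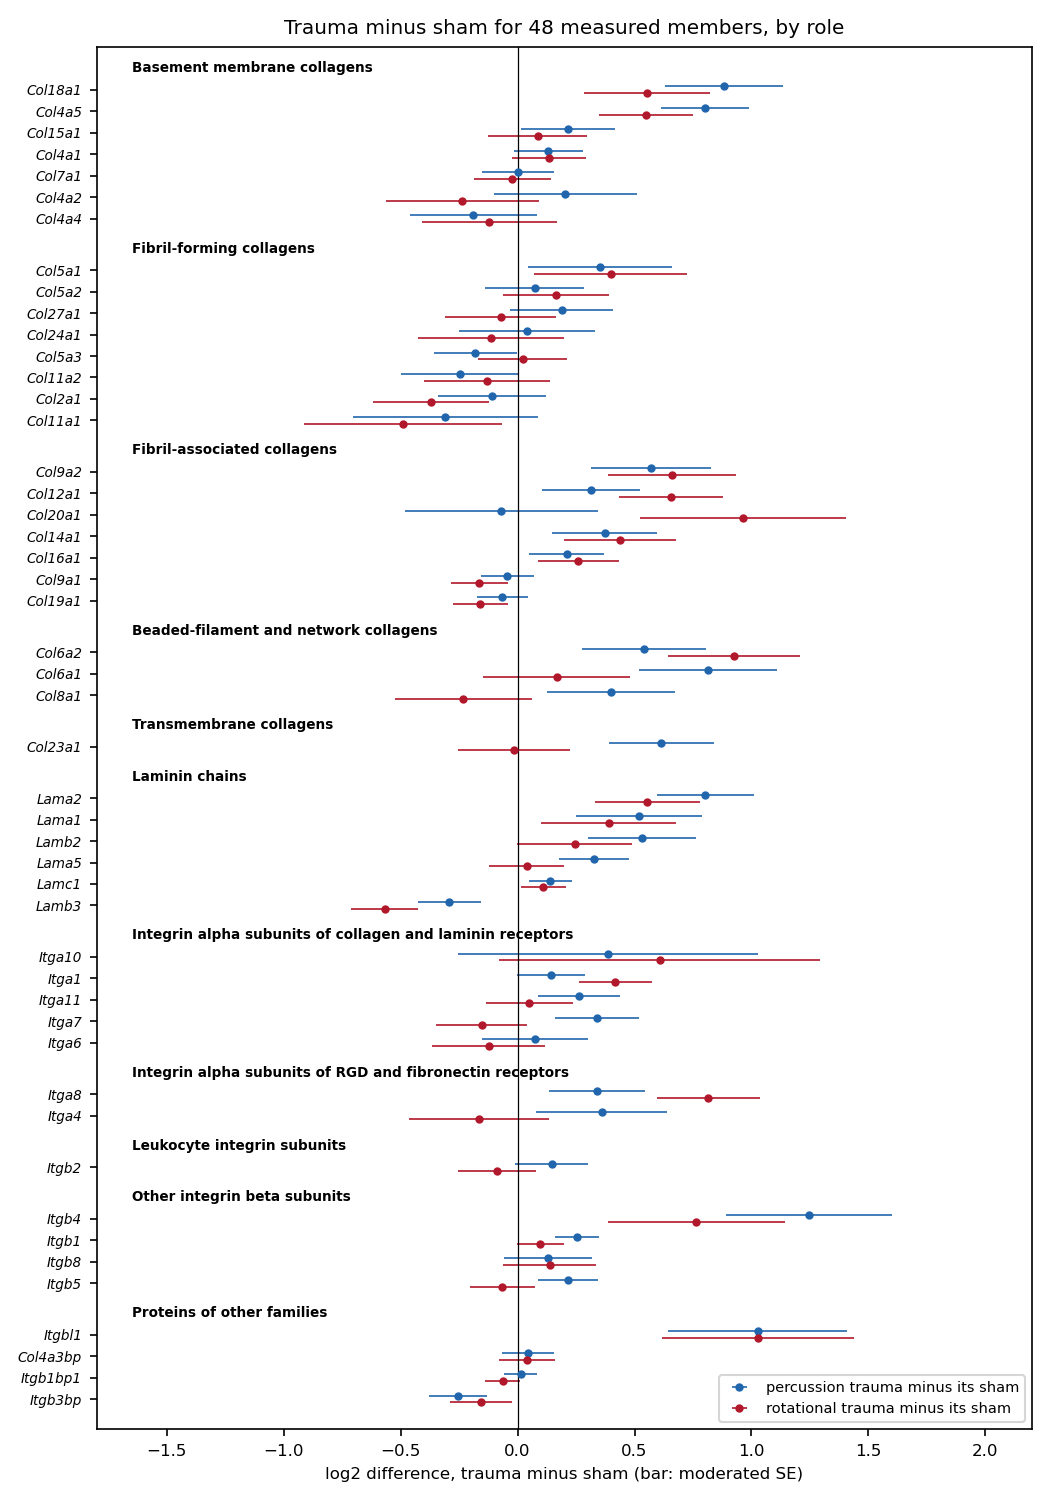
Log2 difference from the sham of the same model (x axis, point with its moderated SE as bar) for 48 of the 49 members, grouped by role down the page, with percussion trauma drawn above rotational trauma for each gene. Col4a5, Col18a1, Lama2, Itgb4 and Itgbl1 lie right of 0 in both models, Lamb3 lies left of 0 in both, and the fibril-forming collagens among the members lie around 0.

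The difference between the models asked whether a member responded more to one injury than to the other. None passed: limma called 0 of 49 members for the percussion effect minus the rotational effect (0.0% of all genes), the smallest adjusted p was 0.635, and 0 members had an unadjusted p under 0.05 (8.57% of all genes did, 6.58% higher and 1.99% lower). The smallest p belonged to Col23a1 (0.63, SE 0.33) and Itga7 (0.49, SE 0.26), higher after percussion trauma, and Col20a1 (-1.03, SE 0.60) and Itga8 (-0.48, SE 0.30), higher after rotational trauma. With normexp Col20a1 gave -0.57 and Itga8 -0.19. All 7 laminin chains had a difference above 0, between 0.03 and 0.29, where 57.6% of all genes were above 0. The models have separate sham groups: 26 members were above 0 in both, 8 below 0 in both and 15 were on opposite sides, a same-sign share of 69.4% against 49.5% of all genes. Across the 49 members the percussion and rotational differences correlated at Pearson r = 0.649, against 0.188 across all genes. Genes are not independent replicates, the members share the 13 arrays, and this is a description.

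The genes that make, bind or sense this matrix were read from lists beside the members, and 0 of their genes passed in any comparison. Of 17 collagen processing and cross-linking genes 14 were above 0 after each trauma (medians 0.20 after percussion and 0.13 after rotational trauma). Pcolce, which speeds removal of the procollagen tail, differed by 1.05 and 1.07, and Adamts2, which cuts the other tail, by 1.16 and 0.88. Serpinh1, the collagen chaperone of the endoplasmic reticulum, differed by 0.41 and 0.49. Of 13 basement membrane partners 10 were above 0 after percussion trauma and 8 after rotational trauma. They were led by the fibulin gene Fbln1 (1.08 and 0.59), Nid1 (0.67 and 0.88) and Nid2 (0.63 and 1.36). Nid1 and Nid2 encode nidogens, which link laminin to collagen IV.

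Matrix metalloproteinases and their inhibitors were above 0 in 8 of 12 after percussion trauma and in 9 of 12 after rotational trauma, with the inhibitor Timp1 at 0.83 and 0.84. Of 21 genes of the integrin adhesion machinery inside the cell 13 and 12 were above 0, with medians of 0.07 and 0.05. The largest of the 3 named there was Flna, the actin cross-linker filamin A, at 0.75 and 0.34, beside Lims1 at 0.35 and 0.05 and Tln1 at 0.39 and 0.22. Other matrix receptors were above 0 in 6 of 11 after each trauma, with medians of 0.04 and 0.01. Of the 3 named there, the collagen receptor kinase Ddr2 was at 0.62 and 0.53, the collagen uptake receptor Mrc2 at 0.81 and 0.11, and the sarcoglycan Sgca at 0.14 and -0.94. In the transforming growth factor beta pathway 14 of 18 and 11 of 18 were above 0, with the target genes Tgfbi at 0.42 and 0.80, Ctgf at 0.20 and 0.67, and Smad7, which encodes an inhibitor of the pathway, at -0.19 and -0.17.

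Markers of meningeal fibroblasts were read in the same way, and 0 of 10 passed in any comparison (smallest adjusted p 0.199 after percussion trauma, 0.141 after rotational trauma and 0.186 for the mean, by limma). None of the 10 is a member (they include Col1a1, Col1a2 and Col3a1), and all 10 were above 0 in both models, with medians of 1.32 after percussion trauma and 1.15 after rotational trauma. Their summed signal, in multiples of the array's upper quartile, ran from 18.8 to 40.0 in percussion trauma, against 6.37 to 14.0 in percussion sham. It ran from 15.2 to 29.5 in rotational trauma, against 6.83 to 12.4 in rotational sham. The groups did not overlap in either model, while Lum, a defining marker, was above background on 0 of 4 percussion sham arrays.

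The choroid plexus list had 3 of 6 markers measured, Aqp1, Kcnj13 and Ttr, all 3 above 0 in both models (medians 1.28 and 1.17). Their summed signal was 0.416 to 1.27 in percussion trauma, against 0.155 to 0.431 in percussion sham, and 0.418 to 1.03 in rotational trauma, against 0.152 to 0.808 in rotational sham. Endothelial markers were above 0 in 7 of 8 and 5 of 8, with medians of 0.15 and 0.05. Their summed signal was 4.34 to 5.13 in percussion trauma, against 3.91 to 4.33 in percussion sham, with no overlap by a small amount. In rotational trauma it was 4.37 to 6.06, against 4.76 to 5.47 in rotational sham, with overlap. Mural cell markers were above 0 in 7 of 8 in each model, with medians of 0.36 and 0.22. Their summed signal was 5.58 to 6.53 in percussion trauma, against 4.81 to 5.56 in percussion sham, with no overlap. For rotational trauma it was 4.05 to 4.9, against 3.68 to 4.17 in rotational sham, with overlap. Of the leukocyte markers 2 of 7 were measured.

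The arrays were also placed one by one. Taking each array's median over the members relative to the sham mean, percussion trauma 1 to 3 stood at 0.37, 0.24 and 0.05, against 0.27, -0.07, -0.02 and -0.11 in percussion sham 1 to 4. Over the 10 meningeal markers the same arrays stood at 2.04, 1.27 and 0.64, against 0.47, -0.05, 0.29 and -0.60. Rotational trauma 1 to 3 stood at 0.28, -0.05 and 0.14 over the members, against 0.11, -0.03 and -0.02 in rotational sham, and at 1.79, 0.66 and 1.04 over the markers, against 0.49, -0.36 and -0.09.

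In 4 of 4 groups the arrays came in the same order by both measures, in 2 of 4 by endothelial markers and in 0 of 4 by mural markers. By their summed signal the choroid plexus markers kept the members' order in percussion trauma and in both rotational groups, and not in percussion sham. With 3 or 4 arrays per group a shared order can also arise by chance. The array labelled 1 was the highest over the members in every group, and it lay in the lowest-numbered slide row that its group used (row 1 in 3 groups and row 2 in rotational sham). The part of the meningeal, choroid plexus, endothelial and mural markers and of the slide row in the members' differences was not tested.

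**Figure D4:**
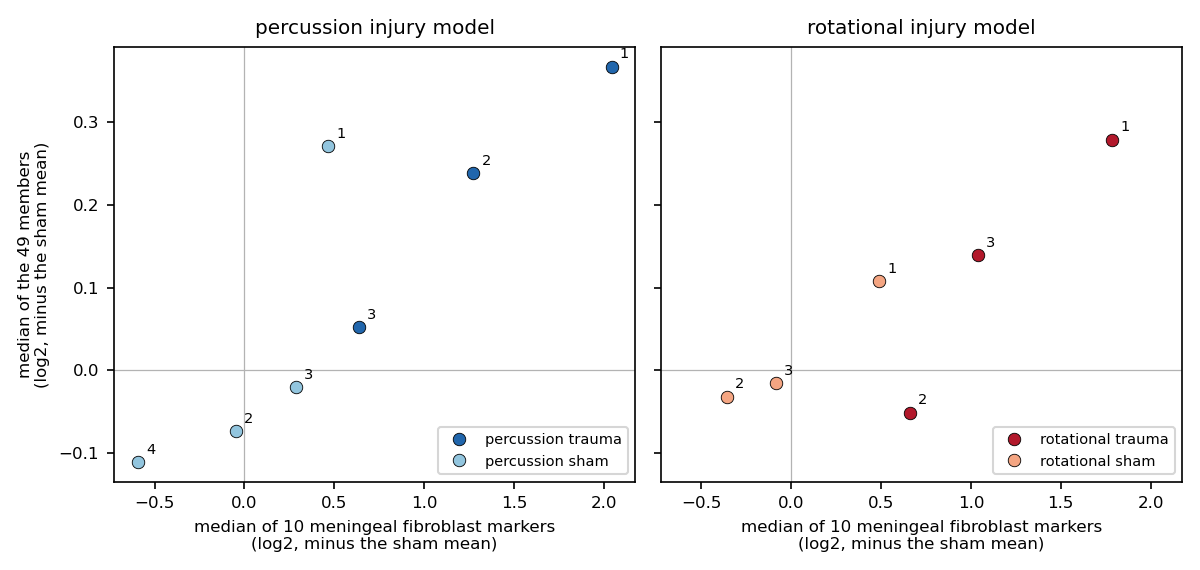
Each point is an array, placed by its median over 10 meningeal fibroblast markers (x axis) and over the 49 members (y axis), both as log2 differences from the sham mean of the same model, with percussion on the left, rotational on the right and the replicate number beside the point. In every group the arrays keep the same order on both axes, and percussion sham 1 at 0.27 lies as high on the y axis as percussion trauma 2 at 0.24.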

How the data were processed

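Frontal cortex RNA of 13 samples was hybridised to 1-colour Agilent arrays. Feature Extraction 10.5.1.1 (Agilent) read the scans, per the file headers, and its background-subtracted processed signal, an intensity deposited for every spot, was the starting value. The deposited log2 table has a median of 8.15 in all columns and was used as an alternative. Here control and outlier spots were left out (58717 of 62976 spots were not controls), spots of a probe were averaged as log2 values, and the array's 75th percentile was subtracted. A probe was kept if all arrays of 1 group or more were well above background (20004 of 30367), and the brightest probe stood for a gene under the name in the scanner files. Probe positions are on rn4, per the file headers.

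Group means over the 13 arrays were estimated with limma 3.58.1 in R 4.3.3 (9 residual degrees of freedom), with two-sided moderated tests and Benjamini-Hochberg adjustment over 17250 genes at 0.05. The labels do not say more of the replicates than that they are separate samples, so p-values measure the spread between these samples. The number of arrays, 3 or 4 per group, limits the precision.

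The members and lists were chosen with earlier results of these data known. Members named at length were the 6 of smallest p in each direction per comparison (4 for the difference between models) and fixed anchors of each role. The 12 other measured members are given by role, 1 measured member is counted but not reported here, and of the context lists up to 3 genes of smallest p are named. Members were not read as replicates, and no test was made over them as a set. Alternatives were normexp with an offset of 50, quantile normalisation, the deposited log2 table, 2 other background filters, the mean of a gene's probes, updated gene names, 1 model at a time, the replicate number as a block, array weights, and leaving out each array. Motifs were counted in RefSeq promoter windows (GRCr8) of 250 bases.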

Additional observations from a re-analysis of the deposited data

Results flagged for a closer look

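Col11a1, a fibril-forming collagen of cartilage, had 1 array far from the others in percussion sham: percussion sham 1 stood at -2.31 on the log2 scale, against -3.50, -3.56 and -3.46 in percussion sham 2 to 4, a gap above Dixon's 95% critical value for 4 samples. Among the 37 named members tested in this group it was the single one, and chance alone marks about 1 group in 20. The percussion trauma arrays stood at -2.84, -3.66 and -4.05. Over the alternatives the percussion difference of Col11a1 ran from -0.65 to 0.03, so its sign is not settled.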

How the results depend on the processing

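In the alternatives that keep the background filter, the count of members passing stayed at 0 in every comparison except for the mean of both effects. There the replicate number as a block gave 1 member (Col18a1, adjusted p = 0.0455, with 28 genes passing in all) and array weights gave 4 (Col4a5, Col6a2, Itgb4 and Lama2, with 95 genes in all), where the weights ran from 0.369 for percussion trauma 3 to 5.93 for rotational sham 3. Whether the numbers pair the samples is not known, and correlations over 3 or 4 arrays per group cannot settle it. As deviations from the group means, same-numbered arrays correlated at 0.282, -0.023 and -0.006 in percussion and 0.109, 0.265 and 0.020 in rotational. Arrays of different number correlated at -0.236 to 0.228 in percussion and at -0.225 to 0.133 in rotational. With no filter on background 67 members were tested and 5 passed after percussion trauma, 2 after rotational trauma and 6 for the difference between models, among 2978, 356 and 3776 of 26269 genes. Of these 13 calls, only Col4a5 and Lama2 after percussion trauma concern members measured here, and the others concern probes not above background. With 1 array left out the count stayed at 0, and the members' median ranged from 0.142 to 0.294 after percussion trauma, 0.023 to 0.175 after rotational trauma, 0.062 to 0.206 for the mean and 0.030 to 0.177 for the difference. The mean's median was lowest without rotational trauma 1 and the difference's without percussion trauma 1. The 2 genes of the whole array that passed after rotational trauma became 0 without rotational sham 2 or 3, percussion trauma 2 or percussion sham 2 or 4, and 12 without rotational trauma 3. They numbered 24 with array weights, 6 with the deposited table and 0 with quantile normalisation. The causes of these changes were not tested. With 3 or 4 arrays per group, the members' adjusted p-values in the limma fit of the Results stayed above the threshold of 0.05. This does not show that the differences are absent.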
